A study of Mus musculus with 4 samples.

Results

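The genes described here carry the signal from foreign nucleic acid in the cytosol to the transcription factor IRF3, together with enzymes that act on the same double-stranded RNA. They were chosen by symbol: Ifih1, Mavs, Tbk1, Ikbke, Irf3, Adar, Eif2ak2 and Trim25, with the RNA sensor RIG-I, listed under its older symbol Ddx58, and STING, listed as Tmem173. All 10 were found among the 14435 genes of the table, and all 10 were abundant enough to be tested. RNA was sequenced from the established mouse macrophage line RAW264.7, in 2 libraries that received an shRNA against Mettl3 (shMettl3) and 2 that received a nonspecific shRNA (Control). METTL3 is the enzyme that places most N6-methyladenosine marks on messenger RNA. Every library came from cells exposed to E. coli lipopolysaccharide (LPS) for 12 hours, so the response to LPS itself was not measured. The series' title asks how METTL3 acts on the inflammatory response to LPS. The sources used here name neither separate cultures for the libraries of a group nor the clones or target sites of the shRNAs, so the p-values measure the spread between these libraries only, which may be technical.

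RIG-I and MDA5, the product of Ifih1, are helicases that bind viral or other unusual double-stranded RNA and then engage MAVS, an adaptor on the outer membrane of mitochondria. STING sits on the endoplasmic reticulum and is switched on by the cyclic dinucleotide that the DNA sensor cGAS makes. MAVS and STING both recruit the kinases TBK1 and IKKε, which phosphorylate IRF3, and IRF3 then drives the interferon beta gene and a set of antiviral genes. LPS reaches the same kinases through TLR4 and its adaptor TRIF, so it can activate this branch in a macrophage without any foreign RNA. Whether the branch was active in these libraries was not measured. The interferon that is released acts back on the cells and raises many of the sensors themselves, since RIG-I, MDA5, PKR and ADAR1 are interferon-inducible.

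The promoters of 3 genes are shown because they hold the core letters of the element through which interferon acts. RefSeq promoter windows of 300 bases around the annotated start (build GRCm38.p6) were at hand for 9 of the 10 genes, all but Tmem173, and were searched on both strands for GAAANNGAAA, the core of the interferon-stimulated response element. The letters were found in 3 of the 9 genes, against 4.07% of the 8899 tested genes with a window. Counted by window, the share was 3.44% of all 32851 windows of that length. The genes were Ddx58 (chr4:40239776-40240075, minus strand), Ifih1 (chr2:62646206-62646505, minus strand) and Eif2ak2 (chr17:78882523-78882822, minus strand), the same 3 of the 10 genes whose Control libraries differ most below. Each window is given 5′ to 3′ along the gene, with the match in capitals. In all 3 it lies downstream of the annotated start, and in Ddx58 it is on the opposite strand and therefore reads TTTCGATTTC.
Ddx58: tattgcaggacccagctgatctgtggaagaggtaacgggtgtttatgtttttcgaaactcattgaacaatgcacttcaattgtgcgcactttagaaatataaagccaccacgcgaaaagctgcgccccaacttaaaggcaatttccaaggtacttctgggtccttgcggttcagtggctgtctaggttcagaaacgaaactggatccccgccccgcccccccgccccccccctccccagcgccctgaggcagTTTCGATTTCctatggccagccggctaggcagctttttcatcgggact
Ifih1: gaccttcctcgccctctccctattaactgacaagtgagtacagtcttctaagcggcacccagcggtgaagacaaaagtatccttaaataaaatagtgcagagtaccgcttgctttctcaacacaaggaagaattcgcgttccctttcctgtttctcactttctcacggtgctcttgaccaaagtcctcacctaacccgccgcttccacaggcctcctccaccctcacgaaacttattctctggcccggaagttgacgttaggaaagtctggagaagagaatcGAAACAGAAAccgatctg
Eif2ak2: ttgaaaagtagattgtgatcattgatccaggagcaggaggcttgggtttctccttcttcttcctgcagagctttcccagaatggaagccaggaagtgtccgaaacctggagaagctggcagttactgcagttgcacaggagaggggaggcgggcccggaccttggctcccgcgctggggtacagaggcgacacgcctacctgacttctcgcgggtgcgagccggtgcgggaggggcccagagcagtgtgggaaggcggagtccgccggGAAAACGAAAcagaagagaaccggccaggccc

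The knockdown and the cell identity were checked before the pathway was read. Mettl3 had estimated counts of 194 and 195 in the shMettl3 libraries and 514 and 496 in the Control libraries, a log2 fold change of -1.42 (SE 0.10). In shMettl3 replicate 2, 1 label field names METTL4 while the title names Mettl3. Mettl4 was not called (log2 fold change -0.04, SE 0.09). Total estimated counts ran from 16342313 to 17193639 per library. Of 8 macrophage markers all were detected. Of these 6 fell (75%) and 1 (Ptprc) rose (12.5%), against 22.3% and 21.4% of all tested genes. Levels in TPM are the authors' transcript share scaled to library total and length. The markers summed to 11792 and 11741 TPM in shMettl3 libraries and 17468 and 16904 TPM in Control libraries. Lyz2 was the largest part of each sum, with 5955 and 5779 TPM in shMettl3 libraries and 10293 and 9350 TPM in Control libraries. Fibroblast markers summed to 0.82 and 0.31 TPM in shMettl3 libraries and 0 and 0.05 TPM in Control libraries, lymphocyte markers to at most 0.16 TPM and dendritic cell markers to at most 0.97 TPM in any library. What part the change in macrophage markers has in the results below was not tested, and in bulk RNA fewer cells of a type and less RNA per cell cannot be told apart.

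Knockdown libraries had more RNA of STING, IKKε and TRIM25 and less of the adaptor MAVS, while TBK1, IRF3 and ADAR1 were not called. RIG-I, MDA5 and PKR had higher values in both shMettl3 libraries than in either Control library but were not called, and their Control libraries lay far apart. The threshold for a call was 0.05 on the p-value of edgeR's quasi-likelihood test, adjusted after Benjamini and Hochberg over the 11035 tested genes. By that rule 3 of the 10 genes rose and 1 fell. Of all tested genes 43.7% were called, 21.4% as risen and 22.3% as fallen, and risen genes made up 48.9% of the calls with TMM, 64.1% with library size alone and 70.0% with TPM. The count of 4 in 10 is near the background and is not a result about these genes as a group. The libraries of the groups did not overlap for 7 of the 10 genes, against 73.4% of all tested genes. The median log2 fold change of the 10 genes was 0.29, against 0.01 for all tested genes. Fold changes are given as shMettl3 over Control on the log2 scale, and levels compared between libraries are counts scaled to library size with TMM factors (CPM).

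**Figure D1:**
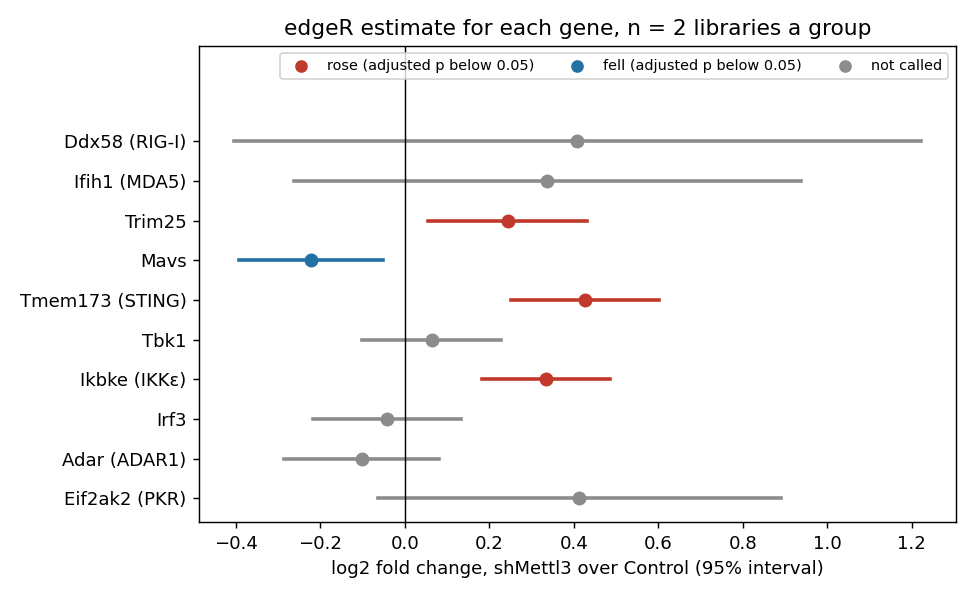
The log2 fold change of each gene, shMettl3 over Control, is drawn as a point with its 95% interval from the edgeR fit (n = 2 libraries a group), red for a rise and blue for a fall at an adjusted p below 0.05. The intervals of Tmem173 and Ikbke, at 0.43 and 0.33, lie well above 0, while those of Ddx58 and Ifih1 are wide and include 0.

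Levels per transcript length were compared between genes in TPM. In shMettl3 libraries the order, from high to low, was Ikbke (mean 249.7 TPM), Trim25 (182), Ddx58 (162), Ifih1 (105), Eif2ak2 (92.2), Adar (82.9), Tbk1 (60.7), Tmem173 (40.9), Irf3 (40.6) and Mavs (32.2). The SD between the 2 libraries ran from 0.559 to 16.1 TPM. Among neighbours in that order, Ifih1 and Eif2ak2 overlapped between libraries, as did Tmem173 and Irf3. In Control libraries the order was Ikbke (mean 179 TPM), Trim25 (139), Ddx58 (110), Adar (80.4), Ifih1 (74.0), Eif2ak2 (63.0), Tbk1 (52.7), Irf3 (37.4), Mavs (34.2) and Tmem173 (27.7). The SD ran from 0.679 to 34.6 TPM, and there the neighbours from Trim25 down to Tbk1 all overlapped. STING RNA thus ranked last of the 10 in Control libraries and overlapped Irf3 in the shMettl3 libraries. The level of IRF3, the factor on which the branch converges, was among the lowest 3 in either group.

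**Figure D2:**
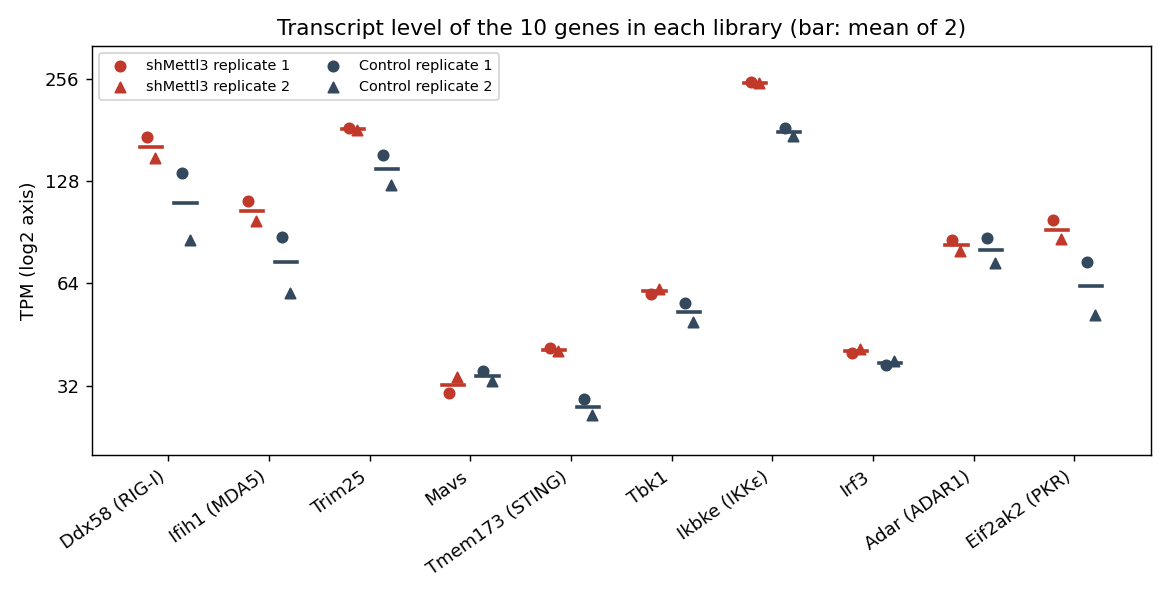
TPM of each gene in each library on a log2 axis, with shMettl3 (red) left of Control (dark blue), circles for replicate 1, triangles for replicate 2 and a bar for the mean of 2. For Ddx58, Ifih1 and Eif2ak2 the Control circle stands well above the Control triangle, while the libraries of Ikbke and Tmem173 lie close together within each group.

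The RNA sensors stand first in the pathway, and neither was called. Ddx58 (Entrez gene 230073), which encodes RIG-I, had 495 and 433 CPM in the shMettl3 libraries against 422 and 277 CPM in the Control libraries. Both shMettl3 libraries were the higher ones, but Control replicate 1 lay closer to them than to Control replicate 2. The log2 fold change was 0.41 (SE 0.26, 95% interval -0.41 to 1.22, adjusted p = 0.307). Ifih1 (Entrez gene 71586), which encodes MDA5, the sensor of long double-stranded RNA, had 267 and 239 CPM in shMettl3 libraries against 237 and 163 CPM in Control libraries. Its lower shMettl3 library stood barely above Control replicate 1, and the fold change missed the threshold, at 0.34 on the log2 scale (SE 0.21, 95% interval -0.26 to 0.94, adjusted p = 0.281). The sensors kept nearly the same proportion to each other, with 0.645 and 0.649 TPM of Ifih1 per TPM of Ddx58 in shMettl3 libraries and 0.651 and 0.700 in Control libraries. Trim25 (Entrez gene 217069), a ubiquitin ligase known for its part in RIG-I activation, had 591 and 587 CPM in shMettl3 libraries against 540 and 455 CPM in Control libraries. It rose, by 0.24 (SE 0.09, adjusted p = 0.0388). That call was lost without shMettl3 replicate 1 (adjusted p = 0.169), without shMettl3 replicate 2 (0.144), without Control replicate 2 (0.193, log2 fold change 0.12), in DESeq2 (0.0534) and without robust fitting (0.0564).

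The adaptors moved in opposite directions. Mavs (Entrez gene 228607) had 51.2 and 56.3 CPM in shMettl3 libraries against 63.9 and 61.6 CPM in Control libraries. The groups did not overlap, and Mavs fell by 0.22 on the log2 scale (SE 0.08, adjusted p = 0.0374). The call was lost without shMettl3 replicate 1 (value -0.15) and without shMettl3 replicate 2 (value -0.29). It was also lost in DESeq2 (adjusted p = 0.134) and with library size alone as the scaling (0.213, value -0.13). The same held with FPKM (0.231, value -0.14) and with TPM (0.435, value -0.09). Library size alone, FPKM and TPM shift every gene. Relative to the median over all tested genes, Mavs stood at -0.24 with TMM and with library size, -0.22 with FPKM and -0.23 with TPM. Tmem173 (Entrez gene 72512), which encodes STING, had 50.3 and 49.2 CPM in shMettl3 libraries against 38.5 and 35.5 CPM in Control libraries. The libraries of each group lay close together and far from the other group. Tmem173 rose by 0.43 (SE 0.08, 95% interval 0.25 to 0.60, adjusted p = 0.00136), and was called in all 15 alternative fits, with values between 0.36 and 0.56.

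Of the kinases that phosphorylate IRF3, IKKε rose and TBK1 was not called. Ikbke (Entrez gene 56489) encodes IKKε, the inducible relative of TBK1, and had 449 CPM in each shMettl3 library against 361 and 351 CPM in the Control libraries. With the libraries of each group almost equal, the log2 fold change was 0.33 (SE 0.07, 95% interval 0.18 to 0.49, adjusted p = 0.00239). It too was called in all 15 alternative fits, between 0.31 and 0.48. Tbk1 (Entrez gene 56480), the constitutive kinase, had 103 and 107 CPM in shMettl3 libraries against 106 and 95.4 CPM in Control libraries. These values overlapped, and the log2 fold change of 0.06 (SE 0.07, adjusted p = 0.523) had a 95% interval of -0.10 to 0.23. Ikbke transcripts outnumbered those of Tbk1 by 4.20 and 4.03 to 1 in shMettl3 libraries and by 3.28 and 3.53 to 1 in Control libraries, in TPM. The ratio was higher in both shMettl3 libraries, and no test was run on it.

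Irf3 itself (Entrez gene 54131) was not called. It had 38.4 and 39.1 CPM in shMettl3 libraries against 38.7 and 41.0 CPM in Control libraries. The groups overlapped, and the log2 fold change was -0.04 (SE 0.08, 95% interval -0.22 to 0.13, adjusted p = 0.700). Its sign turned with library size alone (0.05) and with TPM (0.12), and it was called in 0 of the 15 alternatives. Those scalings shift every gene: the median over all tested genes moved to 0.11 with library size alone and 0.14 with TPM, from 0.01 with TMM, and relative to that median Irf3 stood at -0.06 with TMM and with library size and -0.02 with TPM. IRF3 is regulated mainly by phosphorylation, which RNA counts do not measure.

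Neither of the enzymes that share double-stranded RNA with the sensors was called. Adar (Entrez gene 56417) encodes ADAR1, which converts adenosine to inosine in double-stranded RNA and keeps the cell's own RNA from setting off MDA5. It had 293 and 275 CPM in shMettl3 libraries against 326 and 283 CPM in Control libraries. The groups overlapped (log2 fold change -0.10, SE 0.08, 95% interval -0.29 to 0.08, adjusted p = 0.349). Without Control replicate 2 Adar was called as lower (-0.20), and with TPM its sign turned (0.05, not called). Relative to the median over all tested genes Adar stood at -0.12 with TMM and -0.09 with TPM. Eif2ak2 (Entrez gene 19106) encodes PKR, a kinase that stops translation through eIF2alpha when it binds double-stranded RNA, and had 241 and 214 CPM in shMettl3 libraries against 199 and 143 CPM in Control libraries. Here again the shMettl3 libraries were highest and the Control libraries far apart, and the difference of 0.41 on the log2 scale (SE 0.18, 95% interval -0.06 to 0.89, adjusted p = 0.135) missed the threshold.

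Among the 10 genes the Control libraries differed most for Ddx58, Ifih1 and Eif2ak2. Control replicate 1 exceeded Control replicate 2 by 0.60 for Ddx58, 0.54 for Ifih1 and 0.47 for Eif2ak2 on the log2(CPM + 1) scale, and differences of at least that size were seen in 1.76%, 2.56% and 3.98% of all tested genes. For Ikbke and Tmem173 the Control libraries differed by 0.04 and 0.11. The shMettl3 libraries differed less, by 0.20 for Ddx58, 0.16 for Ifih1 and 0.17 for Eif2ak2. Among the 15 alternatives Ddx58 was called as higher in 4, Ifih1 in 5 and Eif2ak2 in 7. TPM called all 3 (adjusted p = 0.0423 for Ddx58, 0.0385 for Ifih1 and 0.0239 for Eif2ak2), as did the replicate block (0.00547, 0.0103 and 0.00251). FPKM called Ifih1 (0.0499) and Eif2ak2 (0.0304), and limma-voom (0.0371) and the fit without robust weighting (0.0442) called Eif2ak2. Without Control replicate 1 all 3 genes were called, with Ddx58 at 0.73 (adjusted p = 9.09e-06), Ifih1 at 0.62 (1.07e-05) and Eif2ak2 at 0.66 (7.12e-06). Without Control replicate 2 none of the 3 was, with Ddx58 at 0.13 (adjusted p = 0.234), Ifih1 at 0.09 (0.397) and Eif2ak2 at 0.19 (0.0700). When a Control library was left out, the residual spread came only from the shMettl3 pair. Ikbke ran from 0.31 to 0.34 and Tmem173 from 0.36 to 0.47 in the fits with 1 library left out.

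**Figure D3:**
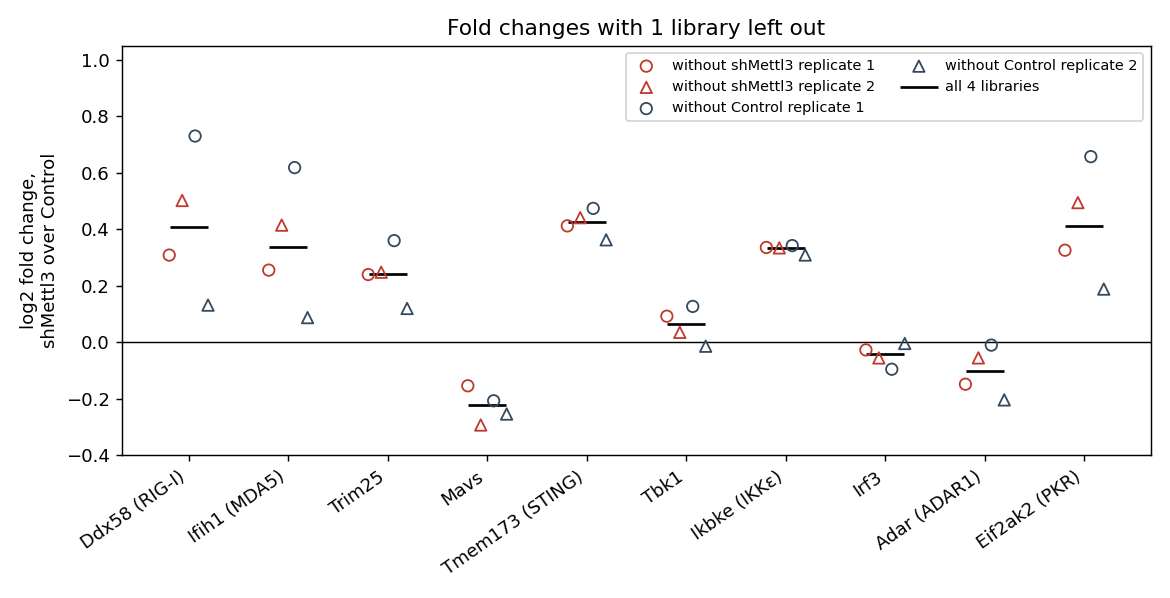
Log2 fold changes of the 10 genes, shMettl3 over Control, in the 4 fits that leave out 1 library (open symbols: red without a shMettl3 library, dark blue without a Control library; circles replicate 1, triangles replicate 2) and with all 4 (black bars). The blue symbols of Ddx58 run from 0.13 to 0.73, whereas all 4 symbols of Ikbke lie between 0.31 and 0.34.

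Other genes of the same pathway were read from lists of 75 genes, of which 70 were tested. In these lists 16 rose and 9 fell, or 22.9% and 12.9%, against 21.4% and 22.3% of all tested genes, and their median log2 fold change was 0.15. Among 9 further RNA sensors and cofactors 0 rose and 0 fell in edgeR, as in DESeq2 and limma-voom, and 1 had an unadjusted p below 0.05. The number that rose was 3 with library size alone and with TPM, 2 with the replicate block, and 1 with FPKM and with a minimum mean of 5 CPM. LGP2, the regulator of RIG-I and MDA5 that Dhx58 encodes, had 153 and 138 CPM in shMettl3 libraries against 195 and 143 CPM in Control libraries (log2 fold change -0.22, SE 0.16). Without Control replicate 2 it was called as lower (-0.43, adjusted p = 2.16e-04), and without Control replicate 1 the value was 0.01 and 6 genes of this list were called as higher.

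On the DNA side 3 of 10 genes rose (30%) and 1 fell (10%), against 21.4% and 22.3% of all tested genes. The RNA of cGAS (Mb21d1), the enzyme upstream of STING, was 41.9 and 39.0 CPM in shMettl3 libraries and 41.5 and 37.4 CPM in Control libraries, and was not called (log2 fold change 0.04, SE 0.09). Aim2, an inflammasome sensor of DNA, averaged 82.8 CPM in shMettl3 libraries and 58.1 CPM in Control libraries and rose (0.51, SE 0.08). Trex1, the nuclease that clears cytosolic DNA, rose as well (282 against 208 CPM, log2 fold change 0.44). The helicase gene Ddx41 rose by a smaller step (0.19), and its call was lost without shMettl3 replicate 1 (adjusted p = 0.219), without shMettl3 replicate 2 (0.246), without Control replicate 1 (0.116), in DESeq2 (0.144), without robust fitting (0.0511) and without a filter (0.0606). Dnase2a, a lysosomal DNase, was the member that fell, to 40.1 CPM in shMettl3 libraries against 66.0 CPM in Control libraries (-0.72, SE 0.08).

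Of 10 adaptors and scaffolds around TBK1, 3 (30%) fell, against 22.3% of all tested genes, and 0 rose in edgeR (0 at an unadjusted p below 0.05, and 0 in DESeq2 and limma-voom). The number that rose was 2 with FPKM, with TPM and without Control replicate 1, and 1 with library size alone and with the replicate block. Traf3, a ubiquitin ligase that links MAVS and TRIF to TBK1, had 49.0 and 50.1 CPM in shMettl3 libraries against 64.4 and 63.3 CPM in Control libraries, and fell by 0.36 on the log2 scale (SE 0.07). The value was -0.20 with TPM (adjusted p = 0.104) and -0.24 with FPKM (0.0521), and was called with neither. Tbkbp1, which encodes the TBK1-binding scaffold SINTBAD, fell by 0.35, and its call was lost without shMettl3 replicate 1 (adjusted p = 0.0621). Optn, the gene of optineurin, an adaptor that binds TBK1, had only 6 and 5 counts in shMettl3 libraries against 18 and 21 in Control libraries, and its call was lost without shMettl3 replicate 2 (adjusted p = 0.0540) and in DESeq2 (0.0612). Ticam1, which encodes TRIF, the adaptor by which TLR4 reaches TBK1, had 64.0 and 63.7 CPM in shMettl3 libraries against 63.4 and 67.8 CPM in Control libraries and was not called (-0.04, SE 0.07).

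Among 12 tested brakes on the pathway 4 rose (33.3%) and 2 fell (16.7%), against 21.4% and 22.3% of all tested genes. The deubiquitinase gene Cyld (0.51) and Tnfaip3 (0.44), which encodes the ubiquitin-editing enzyme A20, rose. Smurf1, a ubiquitin ligase that targets MAVS for degradation, fell by 0.73 on the log2 scale (23.6 against 39.0 CPM). These 3 kept their calls in all 15 alternative fits. Usp18, an inhibitor of interferon receptor signalling that was chosen after its values were seen, had 548 and 466 CPM in shMettl3 libraries against 315 and 209 CPM in Control libraries. At 0.95 (SE 0.26) it missed the threshold (adjusted p = 0.0690), but the value was 1.27 without Control replicate 1 (adjusted p = 1.93e-06) and 0.68 without Control replicate 2 (1.88e-04), and it was called in 9 of the 15 alternatives.

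The other IRF transcription factors showed no common direction, with 1 of 7 tested genes higher and 1 lower. Each is 14.3%, against 21.4% and 22.3% of all tested genes. Irf1 rose (0.51, SE 0.12), and lost its call without shMettl3 replicate 1 (adjusted p = 0.0664). Irf5, which acts downstream of MyD88, fell to 170 CPM in shMettl3 libraries against 249 CPM in Control libraries (-0.55, SE 0.07). Irf7, the interferon-induced relative of IRF3, had 689 and 604 CPM in shMettl3 libraries against 782 and 478 CPM in Control libraries. The shMettl3 values lay between the Control values, and the log2 fold change of 0.04 (SE 0.32) became 0.42 without Control replicate 1 (adjusted p = 7.87e-04) and -0.28 without Control replicate 2 (adjusted p = 0.0137). Both of these fits called Irf7, in opposite directions.

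Genes known as direct targets of IRF3 had the largest positive median of the lists, 0.84 over 8 tested genes. Whether IRF3 itself acted on them here was not tested. Of the 8 genes 3 rose (37.5%) and 0 fell, against 21.4% and 22.3% of all tested genes. The number that rose was 6 in DESeq2 and 7 in limma-voom, and 4 genes were higher and 0 lower at an unadjusted p below 0.05. The number that rose also changed with the library left out, as it did over all tested genes. Cxcl10, a chemokine that attracts T cells, had 224 and 170 CPM in shMettl3 libraries against 65.5 and 41.3 CPM in Control libraries. Cxcl10 rose by 1.88 (SE 0.34, adjusted p = 0.0412), and the call was lost without shMettl3 replicate 1 (adjusted p = 0.185), without shMettl3 replicate 2 (0.143), without Control replicate 2 (0.0756) and without a filter (0.0725), while the value stayed between 1.58 and 2.24. Oasl1 (0.46), an interferon-induced inhibitor of Irf7 translation, and the chemokine gene Ccl5 (0.40) rose and were called in all 15 alternative fits. Ifnb1, the interferon beta gene itself, had 11 and 5 counts in shMettl3 libraries against 0 and 1 in Control libraries and was below the filter, so it was not tested.

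The remaining targets, chosen after their values were seen, also differed between the Control libraries. Ifit2 had 536 and 349 CPM in shMettl3 libraries against 174 and 94.7 CPM in Control libraries (log2 fold change 1.72, SE 0.50, adjusted p = 0.112). Rsad2, which encodes the antiviral enzyme viperin, had 328 and 219 CPM in shMettl3 libraries against 125 and 79.4 CPM in Control libraries (1.42, SE 0.40, adjusted p = 0.0996). Every shMettl3 library was above every Control library in these 2 genes, as in 7 of the 8 tested targets altogether. The groups did not overlap for 73.4% of all tested genes. Isg15, a ubiquitin-like modifier, had 615 and 558 CPM in shMettl3 libraries against 413 and 287 CPM in Control libraries, and its adjusted p of 0.05001 lay just past the threshold. It was called as higher in 12 of the 15 alternatives, among them DESeq2 (adjusted p = 0.0209) and limma-voom (0.00389). Ifit1 (0.94, SE 0.52) and Ifit3 (0.32, SE 0.57) were not called, and in Ifit3 the groups overlapped. Control replicate 1 exceeded Control replicate 2 in all 8 tested targets, by a median of 0.65 on the log2(CPM + 1) scale, against a median of 0.00 over all tested genes. Likewise shMettl3 replicate 1 exceeded shMettl3 replicate 2 in all 8, by a median of 0.36.

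**Figure D4:**
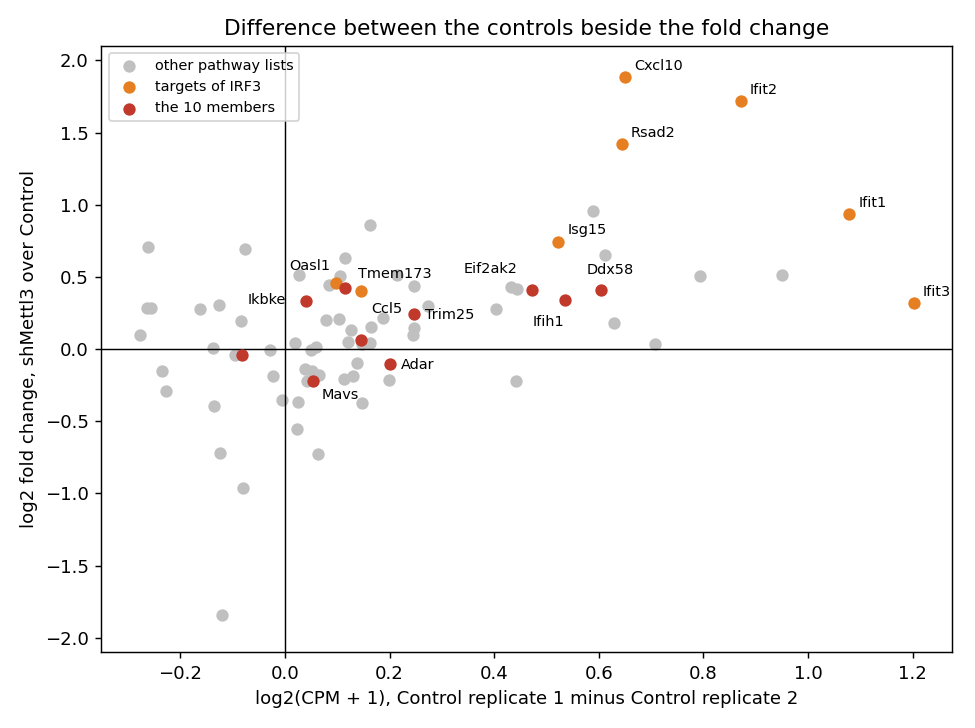
Each point is a tested gene of the pathway lists or a member, with the difference between the Control libraries (replicate 1 minus replicate 2, log2(CPM + 1)) on the x axis and the log2 fold change, shMettl3 over Control, on the y axis, which uses the same Control libraries. Ikbke and Tmem173 lie near 0 on the x axis at 0.04 and 0.11, whereas Ddx58, Ifih1 and Eif2ak2 lie between 0.47 and 0.60, near Isg15 at 0.52.

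The interferon response element core of the printed promoters was also counted beyond the 10 genes. It was found in 5 of 8 IRF3 targets with a window (Cxcl10, Ifit1, Ifit3, Isg15 and Rsad2), in 5 of 52 genes of the other 7 lists, and in 362 of 8899 tested genes with a window (4.07%). Over those 362 genes 26.8% rose and 15.5% fell, against 21.0% and 22.5% of the 8537 genes without a match. Control replicate 1 was the higher Control library for 60.2% of genes with a match and for 48.7% of genes without. The median difference between the Control libraries was small, 0.059 with a match and -0.0017 without on the log2(CPM + 1) scale. In Ddx58, Ifih1 and Eif2ak2, which are among the 362 genes, the difference was 0.47 to 0.60. What part the element has in that difference was not tested. A match is only a run of letters and does not show that a factor binds there.

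From the interferon receptor to its transcription factor complex, 1 of 6 genes rose and 1 fell. Each is 16.7%, against 21.4% and 22.3% of all tested genes. Tyk2, a Janus kinase bound to the receptor, had 108 and 105 CPM in shMettl3 libraries against 71.3 and 65.7 CPM in Control libraries and rose (0.63, SE 0.07). Ifnar2, a chain of the receptor, fell by 0.19 on the log2 scale, a call lost without shMettl3 replicate 1 (adjusted p = 0.213), without shMettl3 replicate 2 (0.278), in DESeq2 (0.118) and with library size alone (0.285), where the value was -0.09.

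In a list of PKR's substrate, the other eIF2alpha kinases and genes of the stress response they set off, 4 of 8 genes rose and 1 fell. These are 50% and 12.5%, against 21.4% and 22.3% of all tested genes. The gene that fell was Eif2ak1, which encodes the kinase HRI and was named after its values were seen (-0.21, SE 0.07, adjusted p = 0.0433), and it was called in 6 of the 15 alternatives. Eif2s1, which encodes eIF2alpha, the substrate of PKR, had 229 and 217 CPM in shMettl3 libraries against 218 and 215 CPM in Control libraries and was not called (0.04, SE 0.07). Ppp1r15b, a subunit that directs the eIF2alpha phosphatase, averaged 187 CPM in shMettl3 libraries and 103 CPM in Control libraries and rose (0.86, SE 0.08). The transcription factor gene Ddit3 rose by 0.71 and Atf4 by 0.30, and Atf4 lost its call without shMettl3 replicate 1 (adjusted p = 0.110). Ppp1r15a, the stress-induced phosphatase subunit, rose by 0.28, a call lost without shMettl3 replicate 1 (adjusted p = 0.161), without shMettl3 replicate 2 (0.0621), without Control replicate 1 (0.167) and in DESeq2 (0.108). Since several kinases phosphorylate eIF2alpha, these genes do not report on PKR alone.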

How the data were processed

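RNA was sequenced in 2 shMettl3 and 2 Control libraries of LPS-treated RAW264.7 cells, grouped by sample title. Per the labels' protocols, full-length cDNA from poly(A) RNA was amplified by PCR and read as single ends without molecular identifiers. The submitters' processing notes list RSEM 1.2.12, Bowtie2 2.2.5, HISAT2 2.0.4 and build mm9, with roles not given. The annotation and strand setting were not given in the sources used here. In RefSeq 5 of the 10 genes (Ifih1, Trim25, Ikbke, Adar and Eif2ak2) overlap another gene, whose reads may be counted with theirs. The authors deposited estimated counts, FPKM values scaled to length and library size, and TPM values, as the file headers name them. The table holds 0 columns of other samples. The members' counts were all whole numbers, while Mettl3, Ifit1, Ifit3 and Irf5 had divided reads, and their values are uncertain to that extent.

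Counts were rounded and tested with edgeR 4.0.16 (R 4.3.3) by its quasi-likelihood test on the group, with robust fitting, TMM factors and filterByExpr (minimum count 10, minimum total 15), which left 11035 of 14435 genes. P-values were adjusted by Benjamini-Hochberg, and standard errors were taken as the absolute log2 fold change divided by the root of F. The fit was also run on simulated data with the same spread for every gene. That run does not cover genes whose Control libraries lie far apart. Chi-square per degree of freedom was 4.25 between shMettl3 libraries and 11.7 between Control libraries, so the members of each pair differ by more than sampling noise. Standard errors cover counting error and library spread only. Alternatives were other scalings, DESeq2 1.42.0, limma 3.58.1 (voom, and on log2 of FPKM or TPM plus 1 or 0.1), other filters, each library left out and a replicate block.

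Named genes were the 10 members, Mettl3, Mettl4, up to 4 called genes with the largest change in each pathway list, and Dhx58, Mb21d1, Ticam1, Traf3, Irf7, Ifnb1 and Eif2s1, with 7 others marked as chosen after their values were seen. Named values of 2 genes are not reported here. The members and lists were chosen with earlier results of these data known, so no list was tested as a set. Promoter windows were read from RefSeq on GRCm38.p6, a later build than mm9.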

Additional observations from a re-analysis of the deposited data

How the results depend on the processing

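Ikbke and Tmem173 kept direction and call in all 15 alternatives, and the other called members, Trim25 and Mavs, kept direction in all 15 and were called in 10 and 8. With 1 library left out, genes called numbered 3095 to 5324 (1503 to 2543 rose and 1592 to 2781 fell), members called 2 to 7 (2 to 6 rose and 0 to 2 fell), and pathway genes 10 to 30 that rose and 6 to 13 that fell, against 4826, 4 and 16 and 9 with all 4 libraries. Other counts that moved by over 1.5 times were as follows. With library size alone 0 members fell. In DESeq2 2 members were called and 0 fell, and 5 pathway genes fell. With FPKM 5 members rose, 0 fell and 28 pathway genes rose. With TPM 6 members rose, 0 fell and 31 pathway genes rose, and of all tested genes 1505 fell with a pseudocount of 1 and 1498 with 0.1. The share of calls that rose was 48.9% with TMM, 64.1% with library size alone, 63.5% with FPKM and 70.0% with TPM.

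Signs of genes that were not called turned as follows. With library size alone Irf3 was 0.054, Ticam1 0.055 and Mettl4 0.051. With FPKM Irf3 was 0.060, Ticam1 0.046 and Mettl4 0.14. With TPM and a pseudocount of 1 Irf3 was 0.12, Adar 0.047, Ticam1 0.10 and Mettl4 0.20, and with 0.1 they were 0.12, 0.048, 0.10 and 0.22. With 1 library left out Tbk1 ran from -0.014 to 0.13, Mb21d1 from -0.043 to 0.10, Ticam1 from -0.10 to 0.0031, Dhx58 from -0.43 to 0.0090, Irf7 from -0.28 to 0.42, Ifit3 from -0.17 to 1.03 and Mettl4 from -0.11 to 0.0036. The causes were not tested.

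With a replicate block on the numbers in the titles, 7 members were called, 6 of them as higher, and 28 pathway genes rose. Nothing in the labels says that a number marks a shared culture or day, and the deviations of same-numbered libraries correlated at 0.15 across genes, from 2 pairs, so the block is only an alternative. Of 240 counts per list and setting, 63 moved by over 1.5 times. Depth limited Ifnb1 and Optn, with at most 21 counts in any library.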
